A study of Mus musculus with 11 samples.

Results

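The 7 genes described here are the platelet-derived growth factor (PDGF) family of the mouse liver data: the ligand genes Pdgfa, Pdgfb, Pdgfc and Pdgfd, the receptor genes Pdgfra and Pdgfrb, and Pdgfrl, which encodes a receptor-like protein. They were taken by symbol from the 27998 genes of the 10X tables, and all 7 were found. The cells were hepatic mesenchyme of adult male Pdgfrb-BAC-eGFP mice on the C57BL/6 background, a line in which a bacterial artificial chromosome with the Pdgfrb regulatory region drives green fluorescent protein. Live GFP+ cells were sorted, and antibodies to CD45, carried by leucocytes, and CD102, carried by endothelial cells, were used in the gate. The level of Pdgfrb is therefore conditioned on the gate in every library, and all groups share the reporter allele.

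There were 5 libraries of 10X Chromium (a droplet method that counts transcripts by unique molecular identifiers, UMIs), each from 3 pooled mice. Digestion protocol 1, labelled PF, gave uninjured cells and cells after CCl4, a hepatotoxin, injected repeatedly for 6 weeks. Protocol 2, labelled HSC, uses a density gradient and gave uninjured cells, cells after CCl4 for 6 weeks, and cells 72 h after a single dose of CCl4. Smart-seq2, a plate method that reads whole transcripts of sorted single cells, gave 6 plates of cells from uninjured mice, mice with 6 weeks of CCl4, and mice 14 days after bile duct ligation (BDL). Each plate held cells of 2 or 3 named mice. The cells of one named mouse on one plate are called a portion.

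PDGF ligands are secreted as disulphide-linked dimers, and their receptors are tyrosine kinases that dimerise on binding. PDGF-A and PDGF-C dimers bind PDGFRα, PDGF-D dimers bind PDGFRβ, and PDGF-B dimers bind both. PDGF-C and PDGF-D are secreted latent and need cleavage of an amino-terminal domain before they bind. In liver, PDGF signalling is best known as a mitogen and chemoattractant for hepatic stellate cells (HSC), the vitamin A-storing pericytes of the sinusoid, and Pdgfrb is the usual marker of the mesenchyme. The remaining mesenchyme is made of portal fibroblasts (FB) and vascular smooth muscle cells (VSMC).

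In the mm10 (GRCm38) annotation, Pdgfra (ENSMUSG00000029231) lies at chr5:75152292-75198215 on the plus strand and Pdgfa (ENSMUSG00000025856) at chr5:138976014-138997370 on the minus strand. Pdgfb (ENSMUSG00000000489) lies at chr15:79995874-80014977 on the minus strand. Pdgfc (ENSMUSG00000028019) at chr3:81036416-81214040, Pdgfd (ENSMUSG00000032006) at chr9:6168584-6378850 and Pdgfrl (ENSMUSG00000031595) at chr8:40926212-40990785 are all on the plus strand. The identifier of Pdgfrb is ENSMUSG00000024620.

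The 10X libraries held 5454 to 7310 cells after filtering, with a median of 4299 to 11343.5 UMIs per cell, and 4.36% to 5.84% of cells were called as doublets and kept. Pairs of libraries shared 33 to 74 cell barcodes, against 41.78 to 67.92 expected by chance draws from the barcode list. Clusters were named FB-like, VSMC-like or HSC-like from markers (Dpt and Clec3b for FB, Acta2 and Myh11 for VSMC, Colec11 and Ecm1 for HSC among them). Protocol 1 gave FB-like and VSMC-like cells (4070 and 1665 uninjured, 2605 and 3017 at 6 weeks), and protocol 2 gave HSC-like cells (6850 uninjured, 4539 at 6 weeks, 7119 at 72 h). Class and digestion protocol therefore cannot be told apart. A cluster of 894 cells led by Ltbp2, Alcam and Scube1 in the 6 weeks protocol 2 library was left unnamed, as were 174 cells led by Fbn2, Ildr2 and Ltbp2 at 72 h. With 1 library per condition and protocol, the 10X values have no replicates and no test, and their 95% intervals cover counting error only. Levels are given as UMIs per 1000000 UMIs of a class (CPM) with an exact Poisson interval.

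The receptors divided the mesenchyme in different ways. Pdgfra was high in FB-like cells, intermediate in HSC-like cells and low in VSMC-like cells, whereas Pdgfrb was found in all 3 classes. The uninjured levels of Pdgfra were 309 CPM (302 to 317) for FB-like, 150.4 CPM (147 to 154) for HSC-like and 34.7 CPM (30.1 to 39.9) for VSMC-like cells. Over all 7 combinations of class and library the order of Pdgfra was FB-like at 6 weeks (336 CPM), FB-like uninjured (309), HSC-like at 6 weeks (220.4), at 72 h (177) and uninjured (150.4), then VSMC-like uninjured (34.7) and at 6 weeks (27.1). The intervals of neighbours in that order did not overlap, the last pair included (24.5 to 29.96 against 30.1 to 39.9). The last pair, however, kept its direction in only 2 of 4 alternative analyses and is not read as a difference. At least 1 Pdgfra UMI was seen in 70.6% of uninjured FB-like cells and 6.43% of uninjured VSMC-like cells, and in 44.1% and 3.58% once each cell was thinned to 2000 UMIs.

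Pdgfrb, the receptor of PDGF-B and PDGF-D, was highest in uninjured VSMC-like cells (271 CPM, 258 to 285) and in HSC-like cells at 6 weeks (259.8 CPM, 255 to 265), and these intervals overlapped. HSC-like cells uninjured (219 CPM, 215 to 223) and at 72 h (222 CPM, 219 to 225) also overlapped each other. FB-like uninjured cells (186 CPM, 180 to 192) and VSMC-like cells at 6 weeks (178 CPM, 171 to 185) came next with overlapping intervals, and FB-like cells at 6 weeks were lowest at 106 CPM (102 to 111). Pdgfrb thus spanned a narrower range across the classes than Pdgfra. The cells were sorted on a Pdgfrb reporter, so its presence in every class and its range are conditioned on the gate.

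**Figure D1:**
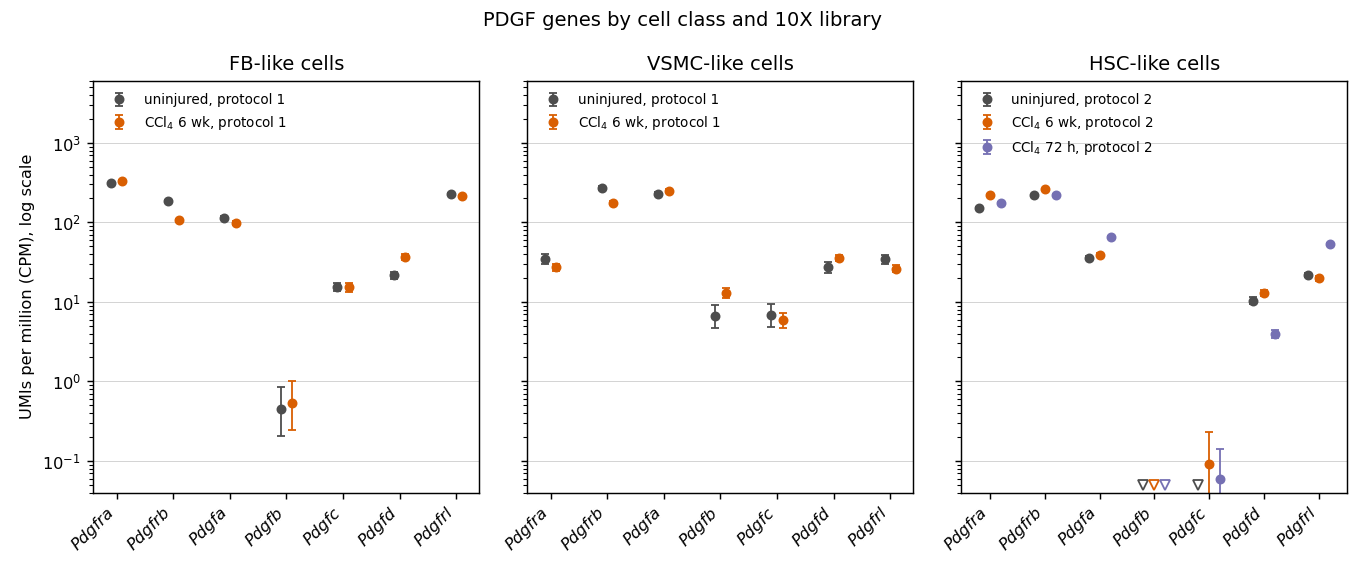
Level of the 7 PDGF genes (CPM, log axis) in each class and 10X library, with exact Poisson 95% intervals; open triangles at the bottom mark 0 UMIs. Pdgfra falls from 309 CPM in uninjured FB-like cells to 34.7 CPM in VSMC-like cells, whereas Pdgfa runs the other way among the protocol 1 classes (114 to 231 CPM), and Pdgfb and Pdgfc are at or near 0 in HSC-like cells.

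Each ligand had its own distribution. Pdgfa, which encodes the chain of the PDGFRα ligand PDGF-AA, was highest in VSMC-like cells, with 252 CPM (244 to 260) at 6 weeks and 231 CPM (218 to 243) uninjured. FB-like cells had 114 CPM uninjured (110 to 119) and 98.6 CPM at 6 weeks (93.9 to 103). HSC-like cells had 64.9 CPM at 72 h (63.2 to 66.7), 39.4 CPM at 6 weeks (37.6 to 41.3) and 35.9 CPM uninjured (34.2 to 37.7), and none of these neighbouring intervals overlapped except the last by a narrow margin (37.6 against 37.7). The class with the most Pdgfa was the one with the least Pdgfra.

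Pdgfb, which encodes the chain of PDGF-BB and is known chiefly from endothelial cells and platelets, was rare. Over all cells there were 47 Pdgfb UMIs in 39 cells of the uninjured protocol 1 library, 191 UMIs in 181 cells of the 6 weeks protocol 1 library and 0 in each of the 3 protocol 2 libraries. In VSMC-like cells this made 6.63 CPM (4.69 to 9.10) uninjured and 12.8 CPM (11.1 to 14.9) at 6 weeks. FB-like cells held 9 UMIs in each library (0.445 and 0.535 CPM), of which 7 of the uninjured ones came from 1 cell. For HSC-like cells, a floor of 3 counts put the limit on Pdgfb at 0.0647 CPM uninjured, 0.0686 CPM at 6 weeks and 0.0358 CPM at 72 h. Of the Pdgfb-positive VSMC-like cells, 0 of 36 uninjured and 4 of 172 at 6 weeks also had a UMI of the endothelial marker list, compared with 22 of 1629 and 46 of 2845 of the other VSMC-like cells. Called doublets were 3 of the 36 and 21 of the 172 Pdgfb-positive cells, compared with 104 of 1629 and 197 of 2845 of the others.

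Pdgfc, a latent PDGFRα ligand, was found in the protocol 1 classes. It stood at 15.5 CPM (13.8 to 17.3) in uninjured FB-like cells and 6.81 CPM (4.84 to 9.31) in uninjured VSMC-like cells, with 15.3 and 5.93 CPM at 6 weeks. After the same filter, HSC-like cells held 0 Pdgfc UMIs uninjured, 4 at 6 weeks (0.0914 CPM) and 5 at 72 h (0.0597 CPM). Pdgfd, the latent PDGFRβ ligand, was found in every class, with 36.5 and 35.4 CPM in FB-like and VSMC-like cells at 6 weeks, 27.2 CPM (23.1 to 31.9) in VSMC-like and 21.6 CPM (19.6 to 23.7) in FB-like cells uninjured, and 3.97 to 12.8 CPM in HSC-like cells.

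Pdgfrl, whose product has immunoglobulin domains but no kinase domain, followed the FB-like class. It stood at 227 CPM (220.1 to 233) in uninjured FB-like cells, 213 CPM at 6 weeks, 53.7 CPM in HSC-like cells at 72 h, and 19.7 to 34.2 CPM in the remaining 4 combinations of class and library. HSC-like cells at 6 weeks (19.7 CPM, 18.4 to 21.1) and uninjured (21.8 CPM, 20.4 to 23.2) had overlapping intervals.

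The classes were not uniform. Among the FB-like clusters of uninjured cells Pdgfrl stood at 491 CPM in 891 FB-like cells led by Chad and Tnmd, genes known from tendon, and at 54.6 CPM in 418 cells led by Krtdap and Dmkn. Pdgfa stood at 265 CPM in 1113 cells led by Plxna4 and Stc2 and at 21.2 CPM in 431 cells led by Apod and Acta1. That Apod and Acta1 cluster also had the lowest Pdgfc (1.77 CPM) and Pdgfd (2.65 CPM) of the FB-like clusters, against up to 29.5 CPM of Pdgfc and 28.3 CPM of Pdgfd in the others.

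Among VSMC-like clusters, Pdgfrb was 423 CPM in 539 cells led by Higd1b, a pericyte gene, and Ephx3, compared with 211 CPM in 1000 cells led by Corin and Sorbs2. Pdgfb was 12.4 CPM in the former and 4.96 CPM in the latter, so ligand and receptor were both higher in the Higd1b cluster. Among HSC-like clusters Pdgfrb ran from 152 CPM, in 1914 cells led by 1200007C13Rik and Ano1, to 319 CPM in 2066 cells led by Clec4g and Tmem178. Clusters were drawn from the expression of these same cells, so their differences are a description.

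**Figure D2:**
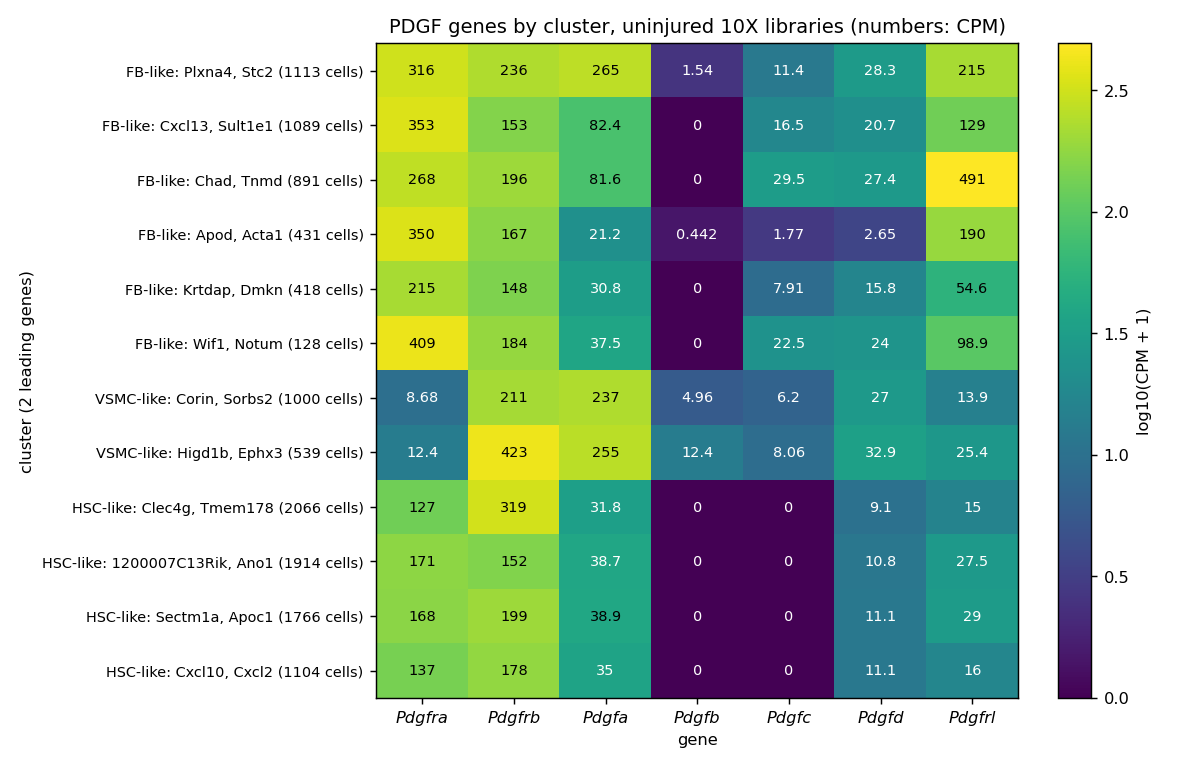
Heat map of the level (CPM, log colour scale) of the 7 PDGF genes in clusters of uninjured 10X cells, named by class and leading genes; 1 VSMC-like cluster is not shown. Pdgfrl is highest in the Chad and Tnmd FB-like cluster (491 CPM), Pdgfb in the Higd1b and Ephx3 VSMC-like cluster (12.4 CPM), and every HSC-like cluster has 0 UMIs of Pdgfb and Pdgfc after filtering.

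Both receptors were often seen in one FB-like or HSC-like cell, and rarely in one VSMC-like cell. Of uninjured HSC-like cells, 41.3% had UMIs of both receptors, as did 63.3% at 6 weeks, 68.0% at 72 h and 40.5% of uninjured FB-like cells, shares that move with depth. With cells thinned to 2000 UMIs, Pdgfrb was detected in 34.2% of Pdgfra-positive and 35.3% of Pdgfra-negative uninjured HSC-like cells, in 38.8% and 38.1% at 6 weeks, in 37.6% and 36.6% at 72 h, and in 31.6% and 29.7% of uninjured FB-like cells, differences of under 2 percentage points. The same shares were 19.4% and 19.0% in FB-like cells at 6 weeks. In VSMC-like cells both receptors were seen in 3.96% uninjured and 4.61% at 6 weeks, and with thinning Pdgfrb was detected in 29.6% of 54 Pdgfra-positive and 39.8% of the other uninjured cells, and in 28.9% of 90 and 28.6% at 6 weeks.

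Over 29 groups of cluster and library, the genes with the pattern most like each PDGF gene were found among 7919 genes by Pearson's r of log2(CPM + 1). These groups share libraries and depth, so r is a description. Among the most alike were S1pr2, Ftl1 and Lum (0.96 each) for Pdgfra, AI838599 and Tmem215 (0.89) for Pdgfa, and Slit2, Meis1 (0.95) and Ngef (0.94) for Pdgfc. For Pdgfd they were Cdkn2aip (0.87), Zfp871 (0.85) and Aldh6a1 (0.83), and for Pdgfrl Gm266, Smim3 (0.93) and Clmp (0.92). The values were lowest for Pdgfrb, with Kansl1 at 0.75, Tia1 at 0.70 and Iffo2 at 0.69. Between PDGF genes, r was 0.77 for Pdgfc with Pdgfd and for Pdgfa with Pdgfb, -0.78 for Pdgfra with Pdgfb and -0.19 for the receptors.

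The first condition comparison asked how the family differed after 6 weeks of CCl4 in the cells of protocol 1. In FB-like cells taken as a class, Pdgfrb was lower and Pdgfd higher at 6 weeks, and the other members stayed within 1.5-fold. Pdgfrb was 106 CPM at 6 weeks and 183 CPM in the uninjured FB-like cells (0.582-fold, 0.550 to 0.616), and Pdgfd was 36.5 and 21.6 CPM (1.69-fold, 1.49 to 1.91). For the 10X contrasts, called means past 1.5-fold with at least 10 CPM in the higher group, and in FB-like cells 7.32% of the 8411 genes tested were called, 5.29% higher and 2.03% lower, compared with 1 member higher and 1 lower of the 6 tested. Pdgfra was 1.08-fold (1.04 to 1.12), Pdgfrl 0.928-fold (0.888 to 0.970), Pdgfa 0.871-fold (0.817 to 0.929) and Pdgfc 1.03-fold (0.870 to 1.22) of uninjured. Pdgfrb was lower at 6 weeks in 4 of 4 FB-like clusters that held cells of both libraries (0.515 to 0.652-fold), and Pdgfd was higher in 4 of 4 (1.07 to 2.33-fold). Pdgfa was also lower in 4 of 4, at 0.579-fold (0.529 to 0.634) in the cluster led by Saa3 and Ctla2a. That cluster made up 45.8% of FB-like cells at 6 weeks and 26.7% of uninjured ones. Pdgfrl was lower in 2 clusters and higher in 2 (0.562 to 1.11-fold). The part of the class make-up in these values was not tested. Of the marker lists of other cell types, the hepatocyte list stood at 68.4 CPM at 6 weeks and 63.5 CPM uninjured. The endothelial list stood at 9.69 and 10.1 CPM, and the leucocyte list at 6.89 and 6.42 CPM. The mesothelial list, nearly all of it Wt1, stood at 84.4 and 73.5 CPM. The cholangiocyte list was lower at 6 weeks (15.6 and 25.5 CPM) and the Schwann cell list higher (5.59 and 3.16 CPM). Stress genes summed to 7547 and 8678 CPM, and the part of these lists in the result was not tested.

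In VSMC-like cells Pdgfrb was again lower at 6 weeks, at 178 CPM compared with 269 CPM (0.660-fold, 0.619 to 0.703), and Pdgfb was higher, at 12.8 CPM (182 UMIs) compared with 6.49 CPM (38 UMIs; 1.98-fold, 1.39 to 2.89). In this class 10.3% of 8237 genes were called, 7.45% higher and 2.85% lower. Pdgfa (1.09-fold, 1.03 to 1.16), Pdgfd (1.31-fold, 1.09 to 1.57), Pdgfra (0.742-fold, 0.626 to 0.881) and Pdgfrl (0.797-fold, 0.667 to 0.953) stayed within 1.5-fold. Pdgfc was 0.620-fold (0.437 to 0.886) but under 10 CPM in both. Pdgfrb was lower in 3 of 3 VSMC-like clusters (0.516 to 0.736-fold).

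The make-up of the class also differed between the libraries. The cluster led by Cd24a and Ephx3, which had the most Pdgfb, made up 65.0% of VSMC-like cells at 6 weeks and 35.5% of uninjured ones. Within it Pdgfb was 17.4 CPM at 6 weeks (150 UMIs) and 14.1 CPM uninjured (25 UMIs), 1.24-fold with an interval of 0.808 to 1.98. Within the cluster led by Bex4 and Tcap it was 5.31 and 3.71 CPM (1.43-fold, 0.654 to 3.31). In the remaining cluster there were 12 and 2 UMIs (3.72-fold, 0.83 to 34.3). Pdgfb was thus higher at 6 weeks in 3 of 3 clusters, each with a counting interval that included 1, and the part of the class make-up in the difference was not tested. The summed endothelial list was 3.74 CPM at 6 weeks and 4.95 CPM uninjured. The Pdgfra and Pdgfrl values of VSMC-like cells changed direction in 2 of 4 alternative analyses each (0.741 to 1.23 and 0.794 to 1.04-fold), and these are not read as differences.

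**Figure D3:**
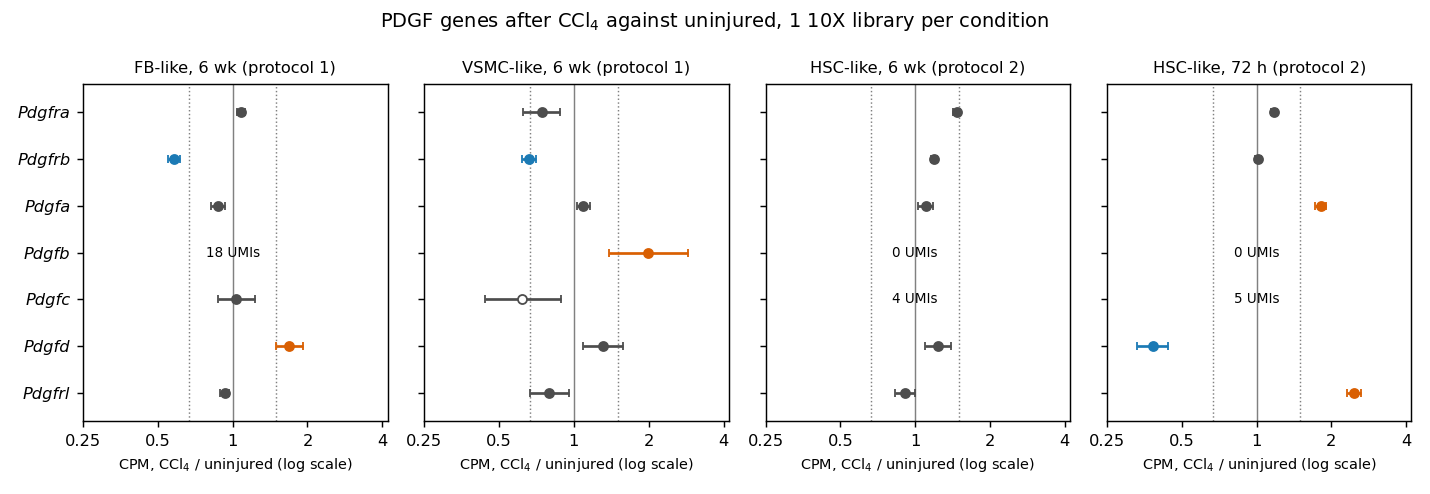
Fold of each PDGF gene, injured over uninjured, on a log axis with exact 95% counting intervals in the 4 contrasts of 10X cells; dotted lines mark 1.5-fold, orange and blue points are past it with at least 10 CPM, and open points are under 10 CPM. Pdgfrb is below the lower line in FB-like (0.582-fold) and VSMC-like cells (0.660-fold) and inside the lines in HSC-like cells.

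In the main analysis, HSC-like cells at 6 weeks had more of both receptor transcripts, without passing 1.5-fold. Pdgfra was 220.4 CPM compared with 150.3 CPM (1.47-fold, 1.42 to 1.51), Pdgfrb 259.8 and 219 CPM (1.19-fold, 1.16 to 1.22), Pdgfd 1.24-fold (1.09 to 1.40), Pdgfa 1.10-fold (1.03 to 1.18) and Pdgfrl 0.910-fold (an interval that ended at 0.997). No member was called, against 16.3% of 8089 genes (5.54% higher, 10.7% lower), and the median gene stood at a log2 fold of -0.21. Pdgfra passed 1.5-fold in 3 of 6 alternative analyses (1.42 to 1.66-fold). Among these were the counting of the unnamed cells and the keeping of Clec4g as an endothelial marker, both chosen after seeing the data. The other was the planned clustering of all 5 libraries together, which named 5448 cells at 6 weeks as HSC-like, compared with 4539 in the main analysis. Over all cells of the protocol 2 libraries Pdgfra was 235.7 CPM at 6 weeks and 150.4 CPM uninjured. The side of 1.5-fold therefore depended on which cells were counted. Different clusters held most HSC-like cells in the 2 libraries, with uninjured cells mainly in clusters led by Fcna and Hhip (2795 cells), Gm12216 and Cxcl10 (1961) and Ttyh1 and Gcgr (1797), and 6 weeks cells in those led by Hk2 and Adamts4 (2154) and Cyp4b1 and Clec4g (1984). Pdgfra was 260.3 CPM in the Hk2 and Adamts4 cluster and 178 CPM in the Cyp4b1 and Clec4g cluster, whereas Pdgfrb was 239 and 288 CPM. In this contrast the mesothelial list summed to 22.7 CPM at 6 weeks and 0.865 CPM uninjured, nearly all of it Wt1, the leucocyte list to 6.40 and 1.69 CPM, markers of division to 44.4 and 28.8 CPM and stress genes to 6971 and 7558 CPM, and their part in the result was not tested.

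At 72 h after CCl4 the ligands and Pdgfrl differed more than the receptors. Pdgfrl was 53.7 CPM compared with 21.8 CPM uninjured (2.47-fold, 2.30 to 2.64), Pdgfa 64.9 and 35.9 CPM (1.81-fold, 1.71 to 1.91), and Pdgfd 3.97 and 10.4 CPM (0.383-fold, 0.332 to 0.441). Pdgfra was 1.18-fold and Pdgfrb 1.01-fold (0.99 to 1.04). So 2 members were called higher and 1 lower of 5 tested, in a contrast where 39.6% of 8378 genes were called (13.3% higher, 26.3% lower) and the median log2 fold was -0.22. The share of cells with a UMI, thinned to 2000 UMIs, went from 7.08% to 11% for Pdgfa, from 4.37% to 9.85% for Pdgfrl and from 1.72% to 0.787% for Pdgfd. Over the alternative analyses the folds were 1.71 to 1.89 for Pdgfa, 2.27 to 2.53 for Pdgfrl and 0.365 to 0.393 for Pdgfd.

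The 72 h cells were spread over clusters of their own, led by Plagl1 and Alcam (3078 cells), Abhd2 and Slc39a1 (1664), the division genes Ccnb1 and Cenpf (1301) and C6 and Alpl (1073), whereas uninjured cells lay mainly in those led by Tnfsf9 and Gm12216 (2661), Fcna and Hhip (1506), Gcgr and Clec4g (1454) and Adap2os and Spry2 (1176). Pdgfd was low in all 4 of the former (3.04 to 4.96 CPM). Pdgfa and Pdgfrl were 76.3 and 63.5 CPM in the Plagl1 cluster but 28.9 and 18.1 CPM in the C6 cluster, where Pdgfrb reached 294 CPM. Markers of division summed to 341 CPM at 72 h and 28.7 CPM uninjured, stress genes to 3881 and 7549 CPM, the leucocyte list to 11.3 and 1.68 CPM, and the mesothelial list to 33.4 and 1.10 CPM, all of it Wt1 with the other 4 markers at 0. Their part in the differences was not tested.

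HSC-like cells were also split within each library, by scores that left the member out, into portal-like and central-like cells, into cells with high and low fibrillar collagen, and into dividing and other cells. Pdgfrb was higher in the portal-like cells of all 3 libraries and Pdgfrl was lower. Pdgfrb stood at 288 and 163 CPM in portal-like and central-like uninjured cells (1.77-fold, 1.70 to 1.84), 327 and 223 CPM at 6 weeks (1.47-fold, 1.41 to 1.52) and 296 and 203 CPM at 72 h (1.46-fold, 1.41 to 1.5). Pdgfrl was 0.566-fold (0.494 to 0.647), 0.528-fold (0.447 to 0.621) and 0.320-fold (0.286 to 0.358) in the same order. Pdgfa was 0.441-fold in portal-like cells at 72 h (32.3 and 73.2 CPM) and 0.782-fold uninjured, and Pdgfra was 0.781-, 0.611- and 0.915-fold. With the score split at its median instead, the 72 h folds were 0.754 for Pdgfa, 0.567 for Pdgfrl and 1.22 for Pdgfrb, in the same direction. The portal and central lists were chosen by the study on these samples and are not independent evidence. The score used 51 portal and 29 central genes, and the portal list of the study is longer than that. Any PDGF gene on a list was left out of the score. For such a gene, a difference between portal-like and central-like cells restates how the list was made. Among detected members, only Pdgfrb was higher in portal-like uninjured cells, the cells from which the study drew its lists. Its differences in this split may restate the list and are not read as a finding. The share of all genes past 1.5-fold in this split was 3.65% uninjured, 7.98% at 6 weeks and 12.0% at 72 h.

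Pdgfrl was higher in cells with high than with low fibrillar collagen (Col1a1, Col1a2 and Col3a1), by 1.39-fold uninjured, 1.82-fold at 6 weeks and 2.61-fold at 72 h, where 0.4%, 2.21% and 9.46% of genes were past 1.5-fold. Pdgfa was 77.9 and 37.2 CPM at 72 h (2.1-fold), 1.03-fold uninjured and 1.08-fold at 6 weeks, and Pdgfrb was 0.909-, 0.874- and 0.916-fold. In dividing cells Pdgfrb was lower than in the rest, at 0.419-fold (0.278 to 0.605) in 27 uninjured cells, 0.569-fold (0.468 to 0.685) in 49 cells at 6 weeks and 0.737-fold (0.705 to 0.769) in 854 cells at 72 h, in splits where 46.7%, 38.5% and 21.4% of genes were past 1.5-fold. These differences between cells of 1 library are a description with no replicate.

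Smart-seq2 gave the comparison with replicate portions, and BDL in addition to CCl4. Of 2292 wells with a named mouse, 2065 were kept, with a median of 445490 reads, and 647 were FB-like, 913 VSMC-like, 312 HSC-like and 193 unnamed. On plates 1 to 5, counts were summed per class and portion, which gave 5 portions each of uninjured and BDL and 4 of CCl4, and were compared with edgeR's quasi-likelihood test with plate as a covariate. Values are reads per 1000000 of the portion (RPM). The uninjured portions serve both comparisons, portions need not be separate mice, and p-values then measure the spread between portions. Injured portions of a plate were set against the same uninjured portion, so counts of portions above or below it are not independent. The share of all genes with such counts is not given here, and the counts are not read as particular to a member. By edgeR, 0 members passed an adjusted p of 0.05 in any of these comparisons (0 by DESeq2), and 1 had an unadjusted p under 0.05. Depending on class and injury, 0.00753% or 0.00767% of all genes were called after BDL and 0.0% after CCl4. On simulated BDL and uninjured portions, the test recovered 2% (FB-like) and 8% (VSMC-like) of planted log2 changes of 1. A lack of calls therefore does not show that a level stayed the same.

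In FB-like wells Pdgfrb stood at 717, 351, 571, 647 and 577 RPM in the uninjured portions of plates 1 to 5, at 886, 719, 1077, 720.2 and 723 RPM after BDL and at 732, 661, 677 and 394 RPM after CCl4. The BDL portions all lay above the uninjured ones, the closest being 719 and 717 RPM, and 5 of 5 were above the uninjured portion of their own plate. The share of all genes whose portions separate in this way is not given here. The separation is therefore not read as particular to Pdgfrb. The log2 difference after BDL was 0.60 (SE 0.30, 95% interval -0.05 to 1.24, edgeR adjusted p = 0.820), in a comparison where 0.00753% of 13286 genes were called. After CCl4 it was 0.13 (SE 0.33, -0.59 to 0.86, edgeR adjusted p = 1.0), with 3 of 4 portions above the uninjured portion of their plate. The eGFP transcript of the reporter was 285 to 451 RPM in the uninjured, 237 to 551 RPM in the BDL and 259 to 473 RPM in the CCl4 portions, with log2 differences of 0.16 and 0.23. The 10X libraries of the same injury gave a fold of 0.582 for Pdgfrb in FB-like cells, a value with no replicate. The CCl4 wells also included most of the unnamed wells (33.4% of kept CCl4 wells, compared with 3.96% for BDL and 0.890% for uninjured), and with those counted as FB-like the log2 difference after CCl4 was -0.19.

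Pdgfd in FB-like wells stood at 47.2, 34.9, 46.5, 32.4 and 67.4 RPM uninjured, at 43.0, 9.13, 16.4, 17.7 and 26.9 RPM after BDL and at 53.4, 64.1, 77.9 and 52.9 RPM after CCl4. It was below the uninjured portion of the same plate in 5 of 5 BDL portions, although 1 of these overlapped the uninjured range. The log2 differences were -0.73 after BDL (SE 0.45, -1.70 to 0.25, edgeR adjusted p = 0.879) and 0.19 after CCl4 (SE 0.54, -0.988 to 1.37, edgeR adjusted p = 1.0). Pdgfra, highest in FB-like cells among the named classes in 10X, was 594 to 880.0 RPM uninjured, 485 to 623 RPM after BDL and 530.2 to 1195 RPM after CCl4. Its log2 differences were -0.26 after BDL and 0.30 after CCl4. Pdgfa was above the uninjured portion of its plate in 4 of 4 CCl4 portions. These share only the uninjured portions of plates 3 and 5, at 75.6 and 22.7 RPM. The groups overlapped (36.3 to 160.1 RPM and 22.7 to 129.9 RPM), and the log2 difference of 1.12 had an SE of 0.54 and an edgeR adjusted p of 1.0. In the 10X FB-like cells at 6 weeks, with no replicate, Pdgfa lay in the other direction, lower in 4 of 4 clusters. Pdgfc was also above the uninjured portion of its plate in 4 of 4 CCl4 portions, at 15.4 to 49.9 RPM compared with 7.27 to 27.8 RPM uninjured and 3.57 to 66.1 RPM after BDL, and these ranges overlapped. Its log2 differences were 1.67 after CCl4 (SE 1.00, -0.51 to 3.85, edgeR adjusted p = 1.0) and 0.49 after BDL (SE 0.91). Pdgfrl was 351 to 530.5 RPM uninjured, 183 to 592 RPM after BDL and 292 to 418 RPM after CCl4, with log2 differences of -0.05 and -0.29.

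In VSMC-like wells Pdgfa was the member whose interval left out 0. It stood at 102, 148, 124, 212 and 142 RPM uninjured, at 209.5, 209.5, 252, 179 and 190.1 RPM after BDL, and at 138, 209, 141 and 129 RPM after CCl4. Of the BDL portions, 4 of 5 were above the uninjured portion of their plate, and the ranges overlapped through the uninjured portion of plate 4. The log2 difference after BDL was 0.60 (SE 0.25, 0.06 to 1.15, edgeR adjusted p = 0.627), in a comparison where 0.00767% of 13042 genes were called, and after CCl4 it was 0.22 (SE 0.28, adjusted p = 1.0). A Pdgfa read was seen in 59.9% of uninjured, 81.1% of BDL and 75.5% of CCl4 wells of this class.

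The ranges of the other members overlapped between the groups in VSMC-like wells. Pdgfrb was 592 to 898 RPM uninjured, 609 to 953 RPM after BDL and 689 to 996 RPM after CCl4, with log2 differences of 0.17 and 0.16. The lower Pdgfrb of the 10X VSMC-like cells at 6 weeks, with no replicate, lay in the other direction. Pdgfb, higher in the 10X cells at 6 weeks, was seen in 13.7% of uninjured, 13.5% of BDL and 14.9% of CCl4 wells, at 3.23 to 26.0, 3.33 to 33.2 and 7.51 to 41.4 RPM, with log2 differences of -0.55 after BDL and 0.29 after CCl4. Pdgfc was above the uninjured portion of its plate in 5 of 5 BDL portions (7.25 to 18.3 RPM compared with 0 to 11 RPM), but 3 wells held 96.7% of its uninjured reads and the groups overlapped. Against this uninjured level near 0 on plates 1 to 5, its log2 differences were 5.05 after BDL (SE 3.03, -1.52 to 11.6, edgeR adjusted p = 0.775) and 5.14 after CCl4 (SE 2.94, -1.25 to 11.52, edgeR adjusted p = 1.0). The uninjured VSMC-like portion of plate 6, which entered no test, had 19.1 RPM of Pdgfc. The CCl4 portions ran from 0 to 49.5 RPM, with 75.3% of their Pdgfc reads in 3 wells. In the 10X VSMC-like cells at 6 weeks, with no replicate, Pdgfc was lower than in uninjured cells and under 10 CPM in both. Pdgfrl was below the uninjured portion of its plate in 4 of 4 CCl4 portions, at 0.301 to 30.4 RPM compared with 11.1 to 72.6 RPM uninjured, with a log2 difference of -1.87 (SE 1.30, -4.69 to 0.95, edgeR adjusted p = 1.0) that ran from -3.77 to -0.93 over the alternatives. After BDL it was 3.64 to 40.8 RPM, with a log2 difference of 0.35. In the HSC-like wells of plate 6, from 2 uninjured portions, Pdgfrb was 861 and 650.3 RPM, Pdgfra 365 and 459.8 RPM, Pdgfc had 0 reads and Pdgfb 3 and 2 reads, and both ligand transcripts were at or near 0 in uninjured HSC-like cells by either method.

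**Figure D4:**
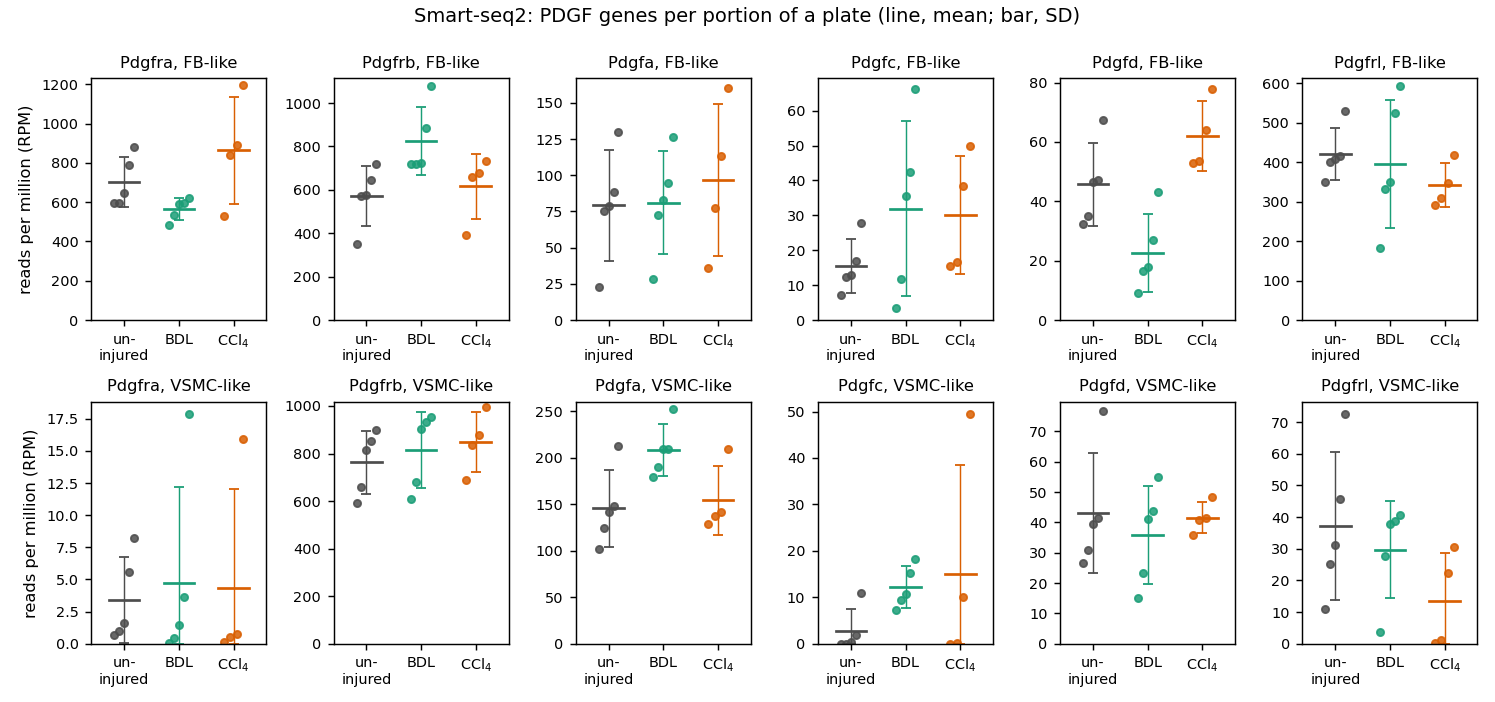
Reads per 1000000 (RPM) of 6 PDGF genes in the Smart-seq2 portions of plates 1 to 5, by condition, shown for the FB-like and the VSMC-like class; points are portions, the line is the mean and the bar its SD. Pdgfrb in FB-like wells is 719 RPM or more in the 5 BDL portions and 717 RPM or less in the 5 uninjured portions. The share of all genes that separate in this way is not given. No member passed the adjusted threshold.

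The genes that act with PDGF were read from a list of 55: proteases and binding proteins that process the ligands, kinases and adaptors that relay the receptor signal, negative regulators, and the related receptors Kit, Csf1r and Flt3, which reached 10 CPM in no uninjured class. In FB-like cells at 6 weeks 3 of 45 tested were called higher and 0 lower, with a median of 0.99-fold, beside 7.32% of all genes called. In VSMC-like cells 4 of 41 were higher and 0 lower (median 1.05-fold), beside 7.45% of all genes called higher and 2.85% lower. Errfi1, a feedback inhibitor of receptor tyrosine kinases, was among them in both, at 671 and 225 CPM in FB-like cells (2.98-fold) and at 1007 and 569.8 CPM in VSMC-like cells (1.77-fold). Lox (1.68-fold) was also called in FB-like cells, and Spry4, another feedback inhibitor, and the kinase gene Akt1 in VSMC-like cells (1.76- and 1.56-fold). The lowest folds of the list were 0.715 for the kinase gene Fyn in FB-like cells and 0.701 for the adaptor gene Gab1 in VSMC-like cells, both within 1.5-fold.

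In HSC-like cells 4 of 46 list genes were higher and 7 lower at 6 weeks (median 0.823-fold), and 5 of 47 higher and 14 lower at 72 h (median 0.794-fold), beside 16.3% and 39.6% of all genes. Plat, the tissue plasminogen activator that cleaves latent PDGF-C, stood at 43.3 CPM at 6 weeks and 56.1 CPM at 72 h, against 4.26 and 4.4 CPM in the uninjured cells of each contrast (10.2- and 12.8-fold). Sparc, a matrix protein that binds PDGF-B, was 1.57 and 1.77-fold, and Lox, which crosslinks collagen, was 31.0-fold at 72 h (76.8 and 2.48 CPM). Errfi1 was 1.79-fold at 6 weeks. The feedback inhibitor Spry2 was 0.551-fold at 6 weeks and 0.313-fold at 72 h, Spry1 was 0.560-fold at 6 weeks, the adaptor gene Nck2 0.184-fold and the phosphatase gene Ptprk 0.382-fold at 72 h, and 7 of 16 negative regulators were lower and 0 higher at 72 h, where 26.3% of all genes tested were lower and 13.3% higher. In Smart-seq2, 52 of the list genes were tested for FB-like wells and 53 for VSMC-like wells, and 0 were called by edgeR; at an unadjusted p under 0.05 FB-like wells had 8 after BDL and 0 after CCl4, beside 841 and 312 of all 13286 genes, and VSMC-like wells had 7 and 4, beside 986 and 462 of all 13042 genes.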

How the data were processed

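The 10X tables hold UMI counts for each gene in each cell, made by the authors with Cell Ranger 2.1.0 on mm10. The Smart-seq2 tables deposited hold read counts for each gene in each well, made by the authors with STAR and rpkmforgenes on mm10 with eGFP and spike-in transcripts added. Neither table was normalised. The members and gene lists were chosen with earlier results of these data known. In each 10X library, a gene seen in fewer than 3 cells was set to 0. 10X cells with at least 300 genes and at most 30% mitochondrial UMIs were kept. Doublets were called against simulated doublets (2 per cell) and kept. Cells were clustered by Leiden (leidenalg 0.10.2, resolution 0.8, 10 principal components, 2000 variable genes, 30 neighbours; Python 3.11.15): the uninjured libraries, and each injury time together with them; clusters were named from markers. Clec4g was taken out of the endothelial list after the clusters were seen, since it led HSC-like clusters. CPM intervals are exact Poisson, folds have exact conditional intervals, shares were thinned to 2000 UMIs, and a count of 0 was read against a floor of 3 counts. Intervals and floors cover counting error only.

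Smart-seq2 wells more than 3 median absolute deviations from the median in quality measures were left out. Portions needed 5 wells of a class. Tests used edgeR 4.0.16 (R 4.3.3; TMM, quasi-likelihood, plate as covariate), two-sided with Benjamini-Hochberg adjustment over all genes tested; DESeq2 1.42.0 was an alternative. The test was tried on simulated portions. Plate 6, of uninjured cells alone, entered no test. All members and eGFP were named whatever their values, and pathway genes were drawn from the 3 largest folds each way of a contrast with at least 20 CPM. The study's human, rat and imaging work was not analysed here. Some genes that the rule names, and a cluster, are not reported here.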

Additional observations from a re-analysis of the deposited data

Results flagged for a closer look

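In Smart-seq2 VSMC-like wells, a single portion stood far from the others of its group in 4 of 24 groups of 4 or 5 portions tested, against 0 of 24 in FB-like wells, and chance gives about 1 in 20 over the 48 groups. For Pdgfra, the portion Peak BDL 1 of plate 2 had 17.9 RPM and the other BDL portions 0.0760 to 3.64 RPM, and the portion Peak CCl4 1 of plate 3 had 15.9 RPM and the other CCl4 portions 0.1 to 0.788 RPM. Of the Pdgfra reads in VSMC-like wells, 3 wells held 90.1% of the 524 after BDL and 93.7% of the 364 after CCl4. Pdgfa had 209 RPM in the portion Peak CCl4 2 of plate 3 and 129 to 141 RPM in the other CCl4 portions. Pdgfc had 11 RPM in the uninjured portion of plate 4 and 0 to 1.97 RPM in the other uninjured portions of plates 1 to 5. The uninjured VSMC-like portion of plate 6, which lay outside these groups, had 19.1 RPM of Pdgfc, so the plate 4 value was not the highest of all uninjured portions.

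Wells named as controls in the plate layouts were used in no comparison. Among 12 of them Pdgfrb reads were found in 6, with at most 2 reads of any PDGF gene in a well, and a plate 1 control well held 414 reads of eGFP.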

How the results depend on the processing

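No member was called in any Smart-seq2 fit, and the lowest adjusted p of a member or eGFP over all fits was 0.0546. Over 26 log2 differences of members and 518 alternative fits, 480 fits kept the sign, and 9 differences had 1 sign throughout. Wells per portion and reads of sparse members limit these, and the 10X contrasts have 1 library a side. Of 128 alternative 10X folds, 119 kept their side of 1.5-fold and 115 their direction. The causes below were not tested, except that a floor of 50 CPM tests fewer genes.

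The genes called in FB-like wells after BDL (1) became 30 without the plate term, 327 with DESeq2, 255 with no filter on low counts, 2 with at least 10 wells per portion, 0 with well filters on log10 values and 2 with unnamed wells counted as FB-like (chosen after seeing the data). After CCl4 (0) they became 119 with DESeq2, 32 with no filter and 1 with unnamed wells counted, and between BDL and CCl4 (0) 3 without the plate term, 141 with DESeq2 and 88 with no filter. In VSMC-like wells the count after BDL (1) became 40 without the plate term, 379 with DESeq2 and 46 with no filter, after CCl4 (0) 187 with DESeq2, and between injuries (0) 1, 163 and 5. Leaving out 1 portion gave 0 to 2 calls in FB-like wells after BDL, 0 to 12 in VSMC-like wells after BDL (12 without Peak BDL 1 of plate 4) and 0 to 1 between injuries. At 50 CPM the 10X counts were 179 of 616 in FB-like and 245 of 849 in VSMC-like cells, and 544 of 1316 and 1333 of 3315 in HSC-like cells at 6 weeks and 72 h.

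With at least 10 wells per portion, the FB-like log2 differences after BDL turned to -0.49 for Pdgfc and 0.15 for Pdgfrl. Without the plate term, they turned to 0.08 for Pdgfa in FB-like wells after BDL, to 0.59 for Pdgfra, -0.25 for Pdgfrl and -0.21 for Pdgfd in VSMC-like wells after BDL, and to 0.41 for Pdgfra after CCl4. With unnamed wells counted as FB-like, Pdgfra, Pdgfd and Pdgfrb after CCl4 turned to -0.027, -0.50 and -0.19. With each portion left out in turn, the differences that changed sign ran, in FB-like wells after BDL, from -0.70 to 0.0007 for Pdgfa, -0.49 to 1.16 for Pdgfc and -0.35 to 0.15 for Pdgfrl, and after CCl4 from -0.032 to 0.31 for Pdgfrb and -0.64 to 0.082 for Pdgfrl. In VSMC-like wells after BDL they ran from -1.59 to 1.14 for Pdgfb, -0.071 to 0.41 for Pdgfd, -3.09 to 1.15 for Pdgfra, -0.056 to 0.39 for Pdgfrb and -0.45 to 0.70 for Pdgfrl, and after CCl4 from -0.042 to 0.50 for Pdgfa, -0.34 to 0.56 for Pdgfb, -0.75 to 0.35 for Pdgfd, -2.32 to 3.10 for Pdgfra and -0.037 to 0.37 for Pdgfrb.

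Splitting HSC-like cells at the median of a score left 22 of 31 folds inside their interval; portal-like over central-like Pdgfrb became 1.32 at 6 weeks and 1.22 at 72 h. Thinning lowered 44 of 45 shares, which follows from its removal of counts. No paired analysis was possible because the replicate numbers of the labels count plates or single 10X libraries and link no injured mouse to an uninjured one; the plate, which holds uninjured and injured portions together, was a term of the fit, and the counts without it are given above.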

Other observations

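The unnamed Smart-seq2 wells fell into a pair of clusters. In 166 wells led by Serpinb2, Mmp7 and Cxcl5, most of them from CCl4 mice, Pdgfra was 545 RPM, Pdgfrb 401 RPM, Pdgfc 42.4 RPM, Pdgfd 30.1 RPM, Pdgfa 27.7 RPM and Pdgfb 4.5 RPM, with eGFP at 237 RPM. These values pool conditions. Over all unnamed wells of plates 1 to 5, Pdgfb had 265 reads in 6 of 26 BDL wells, with 94.7% of them in 3 wells. It had 40 reads in 1 of 5 uninjured wells and 2 reads in 2 of 161 CCl4 wells. Pdgfrb was 51.7 RPM over the 26 BDL wells and 406 RPM over the 161 CCl4 wells. In 27 wells led by the mesothelial genes Msln and Upk1b, Pdgfrb was 0.902 RPM (9 reads) and eGFP 0.301 RPM, whereas Pdgfa was 99.9 RPM, Pdgfra 82.0 RPM and Pdgfc 42.8 RPM. The second cluster thus held PDGF ligand transcripts with almost no reporter transcript, although the wells were sorted as GFP+.

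The unnamed 10X cells of protocol 2 also had PDGF transcripts. The 894 cells of the 6 weeks library led by Ltbp2, Alcam and Scube1 had 317 CPM of Pdgfra, 386 CPM of Pdgfrb and 44.2 CPM of Pdgfrl, and 5 UMIs of Pdgfc. The 174 cells of the 72 h library led by Fbn2, Ildr2 and Ltbp2 had 295 CPM of Pdgfrb, 149.9 CPM of Pdgfra, 105 CPM of Pdgfa and 96.0 CPM of Pdgfrl.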
